A study of Mus musculus with 16 samples.

Results

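A total of 16 libraries of RNA from mouse tumours were ordered by their level of Xcr1, and the libraries high in Xcr1 were compared with those low in it. Xcr1 encodes the chemokine receptor XCR1, which on mouse leukocytes is found almost only on type 1 conventional dendritic cells (cDC1s). Libraries were chosen by the level of Xcr1 in CPM, a gene's count scaled to the total count of its library. The 8 libraries of the Ikbkb experiment and the 8 of the Irf1 experiment, called the Ikbkb set and the Irf1 set, were each ranked by that value. In each set the top 4 were called high and the bottom 4 low, which placed all 16 of the 16 libraries of the series in the comparison, 8 high and 8 low. These groups were made from a measured value and are not the study's groups. Xcr1 itself is therefore described and not tested.

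The libraries came from tumours of YUMM1.7, a mouse melanoma cell line, engrafted into female mice and collected at 200 to 350 mm3. The series describes the material as sorted cDC1s. Markers of other cells were nonetheless high: over the libraries, 16 fibroblast and matrix genes summed to 7752 to 44228 CPM and 18 macrophage and monocyte genes to 4108 to 18163 CPM. The 21 genes of cDC1 identity summed to 1057 to 10878 CPM. The contrast is therefore described as one between RNA mixtures, and the purity of the sort was not tested. Each of 4 genotype labels held 4 libraries: IKKbFF (floxed Ikbkb controls), IKKbdeltaXCR1 (Ikbkb deleted), IRF1FF (floxed Irf1 controls) and IRF1deltaXCR1 (Irf1 deleted), with both deletions named after Xcr1, the gene used here for the ranking. The product of Ikbkb is the kinase IKK-beta, an activator of NF-kB, and that of Irf1 is a transcription factor that interferons induce. No other treatment was given, and the ages of the mice and the driver of the deletion were not stated in the labels. The growth notes name the Ikbkb mice alone, so the Irf1 groups rest on the genotype label. Libraries are named below by label and number, and the labels do not say whether 2 libraries of a group came from separate mice, and p-values thus reflect only how these libraries vary, which may be technical variation.

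Conventional dendritic cells take up tumour antigen and show it to T cells on MHC molecules. The cDC1 subset depends on the transcription factors IRF8 and BATF3, and it is known for cross-presenting antigen on MHC class I to CD8 T cells and for making IL-12. On activation, a dendritic cell enters a mature, migratory state: it raises the chemokine receptor CCR7, costimulatory molecules such as CD40 and CD83, and cytokines such as IL-12 and CCL22, in part through NF-kB.

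In the Ikbkb set, in falling order, the high libraries held 278.5 CPM of Xcr1 (deleted replicate 1), 174.2 (control replicate 3), 74.3 (control replicate 1) and 65.0 (deleted replicate 2). The low ones held 52.4 (deleted replicate 3), 51.1 (control replicate 2), 27.9 (deleted replicate 4) and 20.1 (control replicate 4). In the Irf1 set the high libraries held 208.5 (deleted replicate 1), 130.4 (control replicate 2), 68.9 (control replicate 1) and 68.2 (control replicate 4). The low ones held 45 (deleted replicate 4), 35.7 (deleted replicate 3), 15.4 (deleted replicate 2) and 12.4 (control replicate 3). The boundary thus fell between 65.0 and 52.4 CPM in the Ikbkb set and between 68.2 and 45 CPM in the Irf1 set, and the former is the narrower step. Both levels held both kinds of genotype, with 3 deleted and 5 control libraries among the high and 5 deleted and 3 control libraries among the low. In the Ikbkb set each level held 2 deleted and 2 control libraries. In the Irf1 set the high level held 1 deleted and 3 control libraries and the low level 3 deleted and 1 control. Level and Irf1 genotype thus cannot be fully told apart in that set. Per-gene values given below are CPM on the library totals scaled by TMM, in libraries listed in this same falling order of Xcr1, and ± is the SD over 8 libraries.

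**Figure D1:**
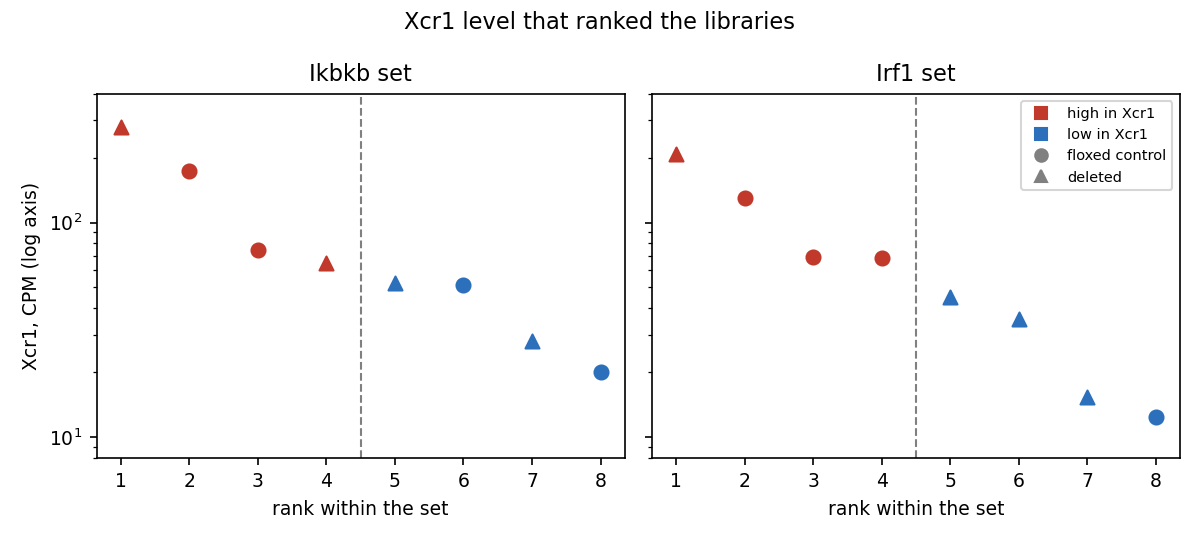
Xcr1 in each library in CPM on the unscaled total (log axis) against its rank within the set, with circles for floxed controls and triangles for deleted libraries. The dashed line marks the boundary between the 4 high and the 4 low libraries, which lies between 65.0 and 52.4 CPM in the Ikbkb set and between 68.2 and 45 CPM in the Irf1 set.

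Total counts averaged 21049661 ± 1644840 in the high and 21436202 ± 3545700 in the low libraries (n = 8 each, two-sided exact permutation p = 0.7804 within sets, 0.9804 adjusted over 3 measures), and the single libraries ran from 16478671 to 27433818. The sets differed in opposite directions, with a high minus low difference in total count of 2915000 in the Ikbkb set (exact permutation p = 0.05714) and -3688000 in the Irf1 set (exact permutation p = 0.08571). Genes with a count averaged 19916 and 19894 (exact permutation p = 0.9804), and mitochondrial counts 1.76% and 2.12% (exact permutation p = 0.3122, adjusted 0.9366). The smallest exact permutation p that the design allows over both sets together is 0.0004082. Within a single set there are fewer labellings, so the smallest p allowed there is larger. Ikbkb deleted replicate 1 and Ikbkb control replicate 3 stood apart, with 10856 and 10878 CPM in 21 cDC1 identity genes, where the other 14 libraries held between 1057 and 4546 CPM. Values without both are therefore given for the 17 called genes chosen by the naming rule and for the lists whose medians moved by over 1.5 times. Both are called the 2 libraries richest in cDC1 RNA below, by the sum of these 21 genes and not by Xcr1. Xcr1 itself was higher in Irf1 deleted replicate 1, at 208 CPM, than in Ikbkb control replicate 3, at 174 CPM. The targeted genes were 69.2 ± 30.7 against 49 ± 12.8 CPM for Ikbkb in the high and low libraries (log2 fold change 0.50 with SE 0.24, adjusted p = 0.369 by edgeR) and 369 ± 227 against 192 ± 72.6 CPM for Irf1 (log2 fold change 0.92 with SE 0.20, adjusted p = 0.0537 by edgeR). Within the Irf1 set, the library labelled Irf1 deleted replicate 1 held 299 CPM of Irf1 and the 4 controls 141 to 268 CPM. Irf1 deleted replicates 2, 3 and 4 held 123, 145 and 98.6 CPM. The labels do not say which exons were floxed, so a count over the whole gene may not check the deletion, and the genotypes were not used to draw a direction.

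Of 25 tested genes that mark dendritic cells in their mature state, 9 were called higher in the libraries high in Xcr1. With the set as a block, edgeR called 54 genes higher, 0.337% of 16039 tested, and 2 lower, 0.0125%, at an adjusted p under 0.05. The 9 of the mature migratory DC list were Ccl22, Il12b, Cd40, Nudt17, Cd83, Traf1, Samsn1, Ccr7 and Pdcd1lg2, and 0 of the list were called lower. The list's median log2 fold change was 1.28, where that of all genes tested was -0.012 with 48.6% of genes positive. That median was 0.91, with 0 called, without Ikbkb deleted replicate 1 and Ikbkb control replicate 3. Libraries of both levels did not overlap within either set for 43 genes higher (0.268%) and 10 genes lower (0.0623%), and 21 of the 54 called higher and 1 of the 2 called lower were among them. At an unadjusted p under 0.05 there were 1362 genes higher (8.49%) and 808 lower (5.04%). The RNA is from bulk material, so more cells of a type and more RNA per cell cannot be told apart in any of these values. The median of the mature list lay below that of the cDC1 identity genes, at 1.5, which follow the ranking. It also lay below that of the genes shared by conventional dendritic cells, at 1.38. Both orders turned in the Irf1 set alone, with medians of 1.15 (mature), 1.03 (cDC1 identity) and 0.86 (shared). They also turned without Ikbkb deleted replicate 1 and Ikbkb control replicate 3, at 0.91 (mature), 0.85 (cDC1 identity) and 0.90 (shared). Whether the mature genes rose beyond dendritic cell RNA as a whole was not tested, and the lists were chosen with earlier results of these data known.

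These calls sat close to the threshold. Their adjusted p ran from 0.0335 to 0.05, and the number called moved between 0 and 316 when single libraries were left out. It was 316 without Irf1 control replicate 1, 310 without Ikbkb control replicate 1, 180 without Ikbkb deleted replicate 2, 88 without Irf1 deleted replicate 3, 7 without Ikbkb control replicate 3, 1 without Ikbkb deleted replicate 3, and 0 without each of the 10 others. It was also 0 in either set alone, in a comparison of the top 3 with the bottom 3 of each set, without the block for set, and without Ikbkb deleted replicate 1 and Ikbkb control replicate 3 together. DESeq2 called 610 genes higher and 140 lower. The mature list had 18 members called with DESeq2 and 0 to 14 when single libraries were left out. Each of the 56 genes had the same direction in each of these fits in which it was tested. Without the 2 libraries richest in cDC1 RNA, the log2 fold change of Cd83 was 1.11, that of Ccl22 1.37, Rel 1.39, Klrk1 1.29, Nudt17 1.1, Cd40 1.08, Traf1 1.00, Samsn1 0.97, Tap2 0.94, Psmb8 0.83 and Arsa -0.40 (edgeR adjusted p between 0.135 and 0.333), and values for the other 6 genes stand beside them below.

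Among secreted factors, Il12b and Ccl22 were called. Il12b (ENSMUSG00000004296, chromosome 11, 44400063 to 44414033, plus strand) encodes the p40 subunit shared by IL-12 and IL-23, and had the largest fold change of the called genes whose mean log2 CPM was 3 or more. In the Ikbkb set it measured 450.0, 817, 308 and 206 CPM in the high libraries and 103, 123, 73.4 and 113 CPM in the low ones. In the Irf1 set it measured 204, 109, 13 and 120.5 CPM in the high and 3.84, 20.6, 6.85 and 6.35 CPM in the low libraries. The Ikbkb set did not overlap, and in the Irf1 set the high library control replicate 1, at 13 CPM, lay below the low library deleted replicate 3. The difference was 2.83 (log2, SE 0.51, edgeR adjusted p = 0.0346), and 2.77 without the 2 libraries richest in cDC1 RNA (adjusted p = 0.185).

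Ccl22 (ENSMUSG00000031779, chromosome 8, 94745590 to 94751699, plus strand) encodes a chemokine that draws CCR4-bearing T cells. It measured 714, 1042, 471 and 381 CPM in the high and 235, 294, 180.3 and 274 CPM in the low libraries of the Ikbkb set. The Irf1 set gave 393, 324, 187 and 281 CPM and 97.2, 146, 42.8 and 72.4 CPM. Neither set overlapped, and every Irf1 library lay below the Ikbkb library of the same Xcr1 rank (log2 fold change 1.57 with SE 0.25, adjusted p = 0.0335 by edgeR). Ccr7, the receptor that guides mature dendritic cells to lymph nodes, was 1057 ± 1214 against 289 ± 207 CPM (log2 fold change 1.69 with SE 0.33, adjusted p = 0.0391 by edgeR), with overlap between the levels in at least 1 set. Il12b stood in both the chemokine and cytokine list and the mature migratory DC list, and Ccl22 in the latter only. Of the list of chemokines and cytokines, 1 of 27 tested members was called, Il12b, and the list's median log2 fold change was 0.39, with 19 of 27 positive. That median rested on single libraries: it was -0.0066 with 13 of 27 positive without Irf1 control replicate 4, 0.17 without Ikbkb control replicate 3 and 0.22 without Irf1 deleted replicate 4.

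Of surface molecules that act on T cells, named here singly and not as a list, Icosl, Cd83, Cd40 and Pdcd1lg2 were called, and Cd80, Cd86 and Cd274 were not. Icosl (ENSMUSG00000000732, chromosome 10, 78069302 to 78083913, plus strand) encodes the ligand of the T cell costimulator ICOS. Its values in the Ikbkb set were 51, 72.2, 22.2 and 18 CPM in the high and 7.22, 11.4, 9.02 and 11 CPM in the low libraries. In the Irf1 set they were 29.3, 22.8, 14.5 and 27.6 CPM and 7.83, 9.13, 2.87 and 5.95 CPM. All 8 high libraries lay above all 8 low ones, with the lowest high value at 14.5 and the highest low value at 11.4 CPM (log2 fold change 1.98 with SE 0.30, adjusted p = 0.0335 by edgeR). Without the 2 libraries richest in cDC1 RNA the difference was 1.56 (adjusted p = 0.135). Cd83 (ENSMUSG00000015396, chromosome 13, 43784775 to 43803132, plus strand) encodes a surface marker of mature dendritic cells. It measured 2223, 3112, 559.9 and 837 CPM in the high and 485, 486, 367 and 313 CPM in the low libraries of the Ikbkb set. The Irf1 set stood lower as a whole, at 202, 175, 121 and 195 CPM and 103, 79.5, 42 and 51.2 CPM. Neither set overlapped, while the high Irf1 libraries lay below every low Ikbkb library (log2 fold change 1.68 with SE 0.31, adjusted p = 0.0346 by edgeR).

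Cd40 (ENSMUSG00000017652, chromosome 2, 165055627 to 165072948, plus strand), the receptor through which T cells license dendritic cells, had a lowest, median and highest value of 42.2, 93.8 and 403 CPM in the high and 20.6, 45.9 and 70.1 CPM in the low libraries (log2 fold change 1.46 with SE 0.27, adjusted p = 0.0346 by edgeR). Its sets did not overlap, although in the Irf1 set the lowest high value, 42.2, and the highest low value, 40.7 CPM, nearly met. Pdcd1lg2, which encodes the inhibitory ligand PD-L2, was 29.5 ± 25.3 against 9.69 ± 5.05 CPM (log2 fold change 1.52 with SE 0.31, adjusted p = 0.0483 by edgeR). Cd274, which encodes PD-L1, averaged 85.7 against 24.9 CPM (1.74, SE 0.37, adjusted p = 0.0537 with edgeR), and Cd86 averaged 179 against 62.4 CPM (1.46, SE 0.31, adjusted p = 0.0537 with edgeR). Cd80, which with CD86 serves as a ligand of CD28, averaged 20.2 against 10.4 CPM (0.79, SE 0.37, adjusted p = 0.367 with edgeR).

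Traf1, Rel and Samsn1, which act in signalling, were among the calls. Traf1 (ENSMUSG00000026875, chromosome 2, 34941750 to 34961772, minus strand) encodes an adaptor of TNF receptors and measured 96.6, 163 and 684 CPM at the lowest, median and highest of the high libraries and 33.1, 80.6 and 124 CPM of the low ones (log2 fold change 1.39 with SE 0.26, adjusted p = 0.0356 by edgeR). Rel (ENSMUSG00000020275, chromosome 11, 23736847 to 23770970, minus strand) encodes the NF-kB subunit c-Rel. It measured 136, 249.4, 67 and 46.1 CPM in the high and 37, 57, 30.7 and 18.5 CPM in the low libraries of the Ikbkb set, and 43.2, 23.6, 29.8 and 28.5 CPM and 4.56, 9.18, 3.63 and 17.6 CPM in the Irf1 set (log2 fold change 1.82 with SE 0.37, adjusted p = 0.05 by edgeR). Control replicate 2 of the Ikbkb set, a low library, exceeded the lowest high one, and the Irf1 set did not overlap. Both were the 2 of 30 genes of the NF-kB pathway and target list that were called, with a list median of 0.47 and 28 of 30 positive (0.28 and 25 of 30 without the 2 libraries richest in cDC1 RNA). Samsn1, a negative regulator of lymphocyte signalling, was 87.7 ± 81.9 against 31.2 ± 15.5 CPM (log2 fold change 1.37 with SE 0.26, adjusted p = 0.0374 by edgeR), and Nudt17, a nudix hydrolase gene, was 43.5 ± 39.6 against 17.5 ± 12.7 CPM (log2 fold change 1.40 with SE 0.26, adjusted p = 0.0346 by edgeR). Libraries of both levels did not overlap within either set for Traf1, Samsn1 and Nudt17.

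In antigen processing, Tap2 and Psmb8 were called, 2 of 19 tested genes of MHC class I and peptide loading. Tap2 (ENSMUSG00000024339, chromosome 17, 34203527 to 34216321, plus strand) encodes a subunit of the transporter that carries peptides to MHC class I. Its lowest, median and highest values were 86.8, 146 and 455 CPM in the high and 55.3, 70.3 and 89.8 CPM in the low libraries. The low libraries lay within a narrow range, 71.1 ± 11.2 CPM, and neither set overlapped (log2 fold change 1.39 with SE 0.25, adjusted p = 0.0346 by edgeR). Psmb8 (ENSMUSG00000024338, chromosome 17, 34197721 to 34201454, plus strand) encodes an immunoproteasome subunit and was 769 ± 495 against 375 ± 206 CPM (log2 fold change 1.04 with SE 0.21, adjusted p = 0.05 by edgeR). The list had a median of 0.74 with 17 of 19 positive, and 0.48 with 16 of 19 positive without the 2 libraries richest in cDC1 RNA.

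A pair of serpin genes followed. Serpinb9, an inhibitor of granzyme B, measured 81.5, 338 and 1529.6 CPM at the lowest, median and highest of the high and 47.4, 156 and 270.4 CPM of the low libraries (log2 fold change 1.51 with SE 0.26, adjusted p = 0.0335 by edgeR). Serpinb6b was 90.5 ± 76.4 against 30.2 ± 24.2 CPM (log2 fold change 1.67 with SE 0.26, adjusted p = 0.0335 by edgeR), and as a member of a family of close copies its count may hold reads of a paralog. Fgl2, a fibrinogen-like immune regulator, measured 54.4, 170.5 and 689 CPM in the high and 13.8, 69.8 and 151 CPM in the low libraries (log2 fold change 1.79 with SE 0.32, adjusted p = 0.0346 by edgeR). Htr7, a serotonin receptor gene, was 51.1 ± 36.5 against 14.2 ± 6.89 CPM (log2 fold change 1.73 with SE 0.35, adjusted p = 0.05 by edgeR). None of these 4 genes overlapped within a set, though in the Irf1 set Htr7 was at 22.4 CPM in the lowest high library and 22.4 CPM in the highest low one. Without the 2 libraries richest in cDC1 RNA, the differences were 1.21 for Serpinb9, 1.52 for Serpinb6b, 1.37 for Fgl2 and 1.28 for Htr7 (log2, edgeR adjusted p = 0.135, 0.135, 0.212 and 0.232).

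**Figure D2:**
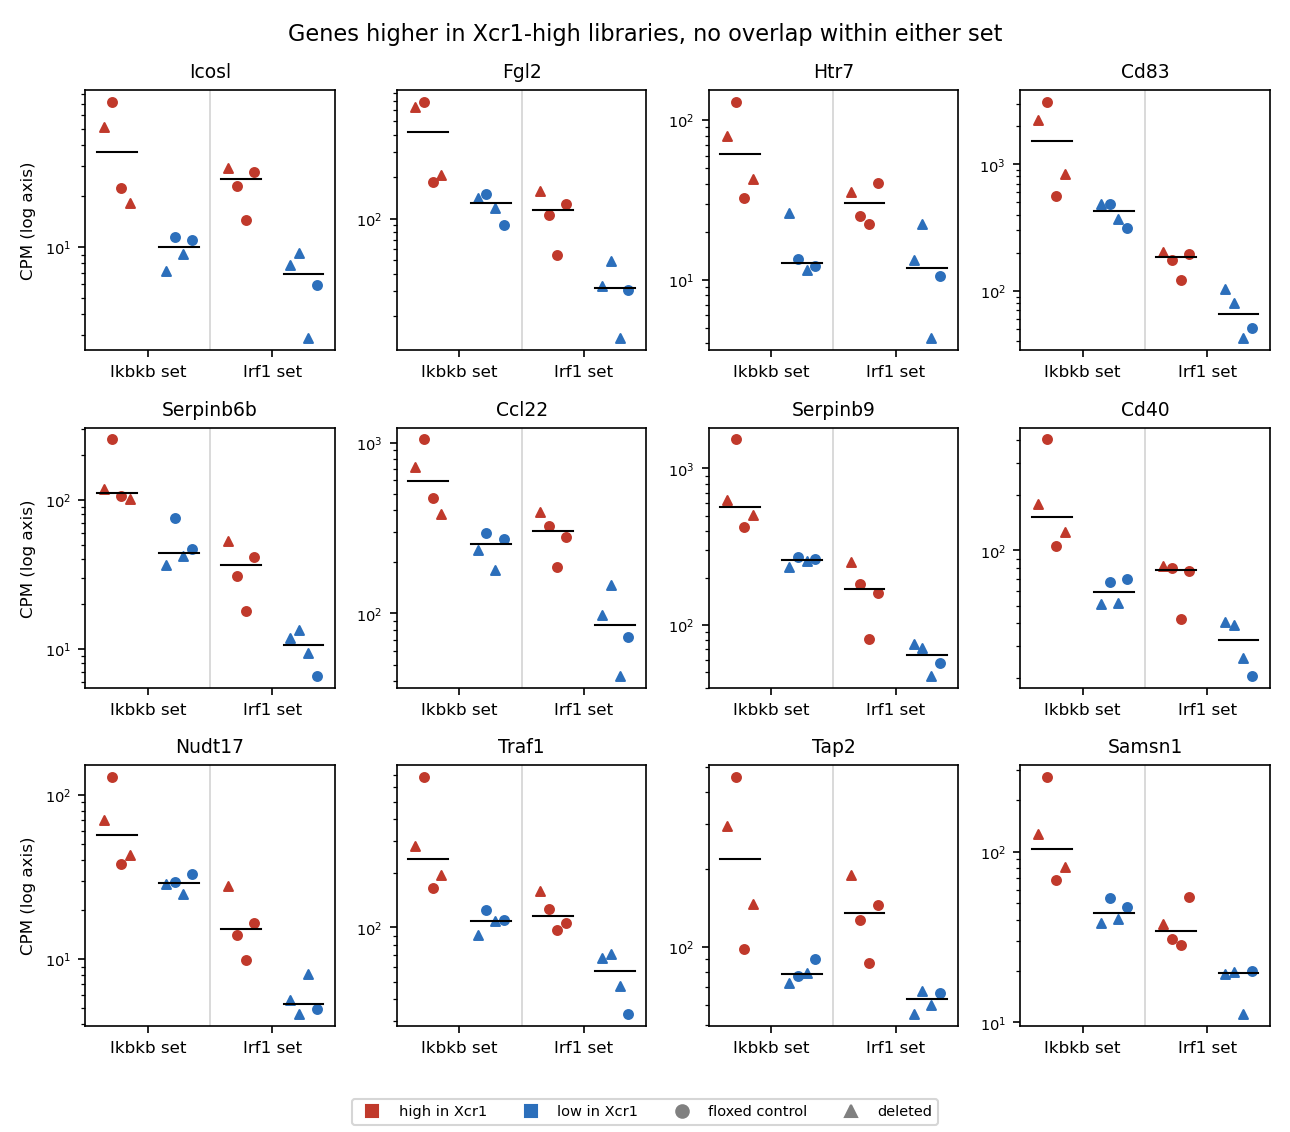
Level of 12 genes called higher, in TMM-scaled CPM (log axis), in each library by set and level, with circles for floxed controls, triangles for deleted libraries and a black line at the median of 4 libraries. High and low libraries do not overlap within either set in any of the 12, a property that the rule for naming them required.

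Genes called lower were 2. Arsa (ENSMUSG00000022620, chromosome 15, 89472476 to 89477425, minus strand) encodes the lysosomal enzyme arylsulfatase A. It measured 76.5, 86.3, 78.5 and 86 CPM in the high and 103, 104, 116 and 103 CPM in the low libraries of the Ikbkb set, against 82.8, 92.7, 99.7 and 78.6 and 109, 128, 119 and 119 CPM in the Irf1 set. All 8 high libraries lay below all 8 low ones, and the difference was small (log2 fold change -0.40 with SE 0.08, adjusted p = 0.05 by edgeR). Tpsb2, a tryptase gene of mast cells with a close paralog in Tpsab1, was 21.9 ± 20.7 against 59.9 ± 38.8 CPM (log2 fold change -1.64 with SE 0.30, adjusted p = 0.0346 by edgeR), and its levels overlapped in at least 1 set.

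Promoter sequences are shown for 5 genes called higher, those chosen by the naming rule whose window held a searched motif, to set the letters beside the values. Other called genes with a match are not shown. Windows ran from 250 bases before to 50 bases after the start of transcription and came from RefSeq on GRCm38.p6, where 43 of the 54 genes called higher had an entry, with 56 windows. The searched motifs, on both strands, were kB (GGG, any 3 bases, TTCC), the ETS-IRF composite (GGAA, any 2 bases, GAAA), ISRE (GAAA, any 2 bases, GAAA), whose letters can overlap those of the composite, and AP-1 (TGA, any 1 base, TCA). Capitals mark the matches, and positions count from 1 at the first transcribed base, with negative numbers before it.
Rel: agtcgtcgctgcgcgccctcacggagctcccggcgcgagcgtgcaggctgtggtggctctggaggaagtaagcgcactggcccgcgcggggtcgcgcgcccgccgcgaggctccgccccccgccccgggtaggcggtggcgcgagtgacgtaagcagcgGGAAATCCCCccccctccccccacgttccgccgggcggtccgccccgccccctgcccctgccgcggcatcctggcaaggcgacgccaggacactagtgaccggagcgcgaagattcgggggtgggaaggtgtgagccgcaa
Klrk1: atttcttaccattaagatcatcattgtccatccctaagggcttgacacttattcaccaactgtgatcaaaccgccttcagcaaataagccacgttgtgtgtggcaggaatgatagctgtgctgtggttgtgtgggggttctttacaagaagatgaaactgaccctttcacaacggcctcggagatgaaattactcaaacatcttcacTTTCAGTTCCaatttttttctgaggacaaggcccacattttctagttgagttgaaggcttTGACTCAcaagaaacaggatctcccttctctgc
Samsn1: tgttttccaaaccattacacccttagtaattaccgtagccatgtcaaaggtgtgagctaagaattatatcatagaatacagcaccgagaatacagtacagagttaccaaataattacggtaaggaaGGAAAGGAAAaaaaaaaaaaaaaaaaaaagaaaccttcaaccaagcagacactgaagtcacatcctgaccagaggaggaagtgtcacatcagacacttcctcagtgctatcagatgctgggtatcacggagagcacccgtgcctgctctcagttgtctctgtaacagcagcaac
Serpinb9: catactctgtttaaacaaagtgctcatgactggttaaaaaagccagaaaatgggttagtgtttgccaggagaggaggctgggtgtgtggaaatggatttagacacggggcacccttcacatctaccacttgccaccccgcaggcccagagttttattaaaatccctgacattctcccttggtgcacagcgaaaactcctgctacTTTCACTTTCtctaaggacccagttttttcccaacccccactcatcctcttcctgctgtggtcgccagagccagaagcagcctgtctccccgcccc
Fgl2: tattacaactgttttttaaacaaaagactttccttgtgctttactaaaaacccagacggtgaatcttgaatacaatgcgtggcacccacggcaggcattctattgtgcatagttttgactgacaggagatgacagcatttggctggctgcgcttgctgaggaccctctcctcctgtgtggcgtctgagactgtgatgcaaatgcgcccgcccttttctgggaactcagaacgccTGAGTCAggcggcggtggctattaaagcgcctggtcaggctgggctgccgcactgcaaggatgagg
The Rel window (chr11:23770920-23771219, minus strand) held a kB match at -91 to -82. Klrk1 encodes NKG2D, a receptor listed here with the T and NK cell markers, and its window (chr6:129623815-129624114, minus strand) held an ETS-IRF match at -43 to -34 and an AP-1 match at 18 to 24. The Samsn1 window (chr16:75909217-75909516, minus strand) held an ETS-IRF match at -124 to -115. The Serpinb9 window (chr13:33004291-33004590, plus strand) held an ISRE match at -46 to -37, and the Fgl2 window (chr5:21372423-21372722, plus strand) an AP-1 match at -16 to -10. Across the 43 genes, 6.98% held a kB match, 9.30% an ETS-IRF match, 11.6% an ISRE match and 14% an AP-1 match. Of all 11220 tested genes with a window, 7.52%, 2.97%, 4.05% and 6.73% held them. These are counts of letters in a window, with no test, and say nothing of whether a factor binds.

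Genes of cDC1 identity had higher means in the high libraries, and 0 of 21 were called. That count depended on the setting: it was 18 with DESeq2, 20 with log2 Xcr1 as a continuous covariate, 10 with genotype groups as block, 9 with a filter of 5 CPM in 4 libraries and 0 to 9 when single libraries were left out. All 21 had a positive log2 fold change, with a median of 1.5 and a range of 0.71 to 1.91, and 20 had an unadjusted p under 0.05. The 21 genes were listed as markers of the cells that Xcr1 marks, so their direction follows the ranking and is no independent support for it. Which cells gave their RNA in these mixtures was not tested. Irf8, the transcription factor that specifies cDC1s, measured 2268, 2511, 545 and 744 CPM in the high and 379, 376, 394 and 278 CPM in the low libraries of the Ikbkb set. In the Irf1 set it measured 886, 586, 405 and 527 CPM and 437, 357, 178 and 163 CPM, where a low library, deleted replicate 4, exceeded a high library, control replicate 1 (log2 fold change 1.59 with SE 0.34, adjusted p = 0.0537 by edgeR, and 1.00 without the 2 libraries that stood apart). Other members were Clec9a, a receptor for dead cells, at 23.2 against 7.74 CPM (1.43, SE 0.55, adjusted p = 0.244 with edgeR), and Batf3 at 23.6 against 8.19 CPM (1.41, SE 0.41, adjusted p = 0.124). Ifi205 (233 against 69.4 CPM) and Rab7b (166 against 57.7 CPM) were the 2 members whose levels did not overlap within either set, and Nfil3, at 111 against 52.9 CPM, was the member with the smallest fold change.

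The summed level of the 21 genes was 4977 ± 3707 against 1739.7 ± 499 CPM. Single libraries of the Ikbkb set held 10856, 10878, 2558 and 3359.8 CPM when high and 2273, 1816, 1855 and 1386 CPM when low. Those of the Irf1 set held 4546, 3009, 2242 and 2364 CPM and 2296, 2121, 1114 and 1057 CPM. The high Ikbkb libraries all lay above the low ones, while in the Irf1 set the low library deleted replicate 4 exceeded the high library control replicate 1. Without the 2 libraries that stood apart the median was 0.85, against 1.98 in the Ikbkb set alone and 1.03 in the Irf1 set alone.

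The lists of shared conventional DC genes and of MHC class II genes had medians of similar size and 0 calls. Those counts depended on the setting as well. With DESeq2, 9 of 10 shared and 9 of 11 MHC class II genes were called. When single libraries were left out, 0 to 6 and 0 to 8 were called. In the main fit 9 and 11 had an unadjusted p under 0.05 by edgeR. The 10 genes shared by conventional dendritic cells, such as Zbtb46 (74.5 against 20.9 CPM) and the growth factor receptor gene Flt3 (182 against 54.8 CPM), were positive in 10 of 10 with a median of 1.38. The highest expressed of them were Cst3, which encodes cystatin C, at 6828 ± 5658 against 2673 ± 1059 CPM (log2 fold change 1.17 with SE 0.33, adjusted p = 0.104 by edgeR), and Plbd1 at 1068 ± 795 against 371 ± 146 CPM (log2 fold change 1.42 with SE 0.33, adjusted p = 0.0606 by edgeR). MHC class II genes, which are also made by macrophages and B cells, were positive in 11 of 11 with a median of 1.34. Cd74, the invariant chain, was 9824 ± 6237 against 3739.5 ± 1150.5 CPM (log2 fold change 1.34 with SE 0.31, adjusted p = 0.0578 by edgeR), and H2-Ab1 9681 ± 7993 against 3308 ± 1282 CPM (log2 fold change 1.40 with SE 0.35, adjusted p = 0.0723 by edgeR). The 11 genes summed to 27928 ± 20630.2 against 10140.0 ± 3509.6 CPM. Without the 2 libraries that stood apart the medians were 0.90 for the shared list and 0.81 for MHC class II.

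**Figure D3:**
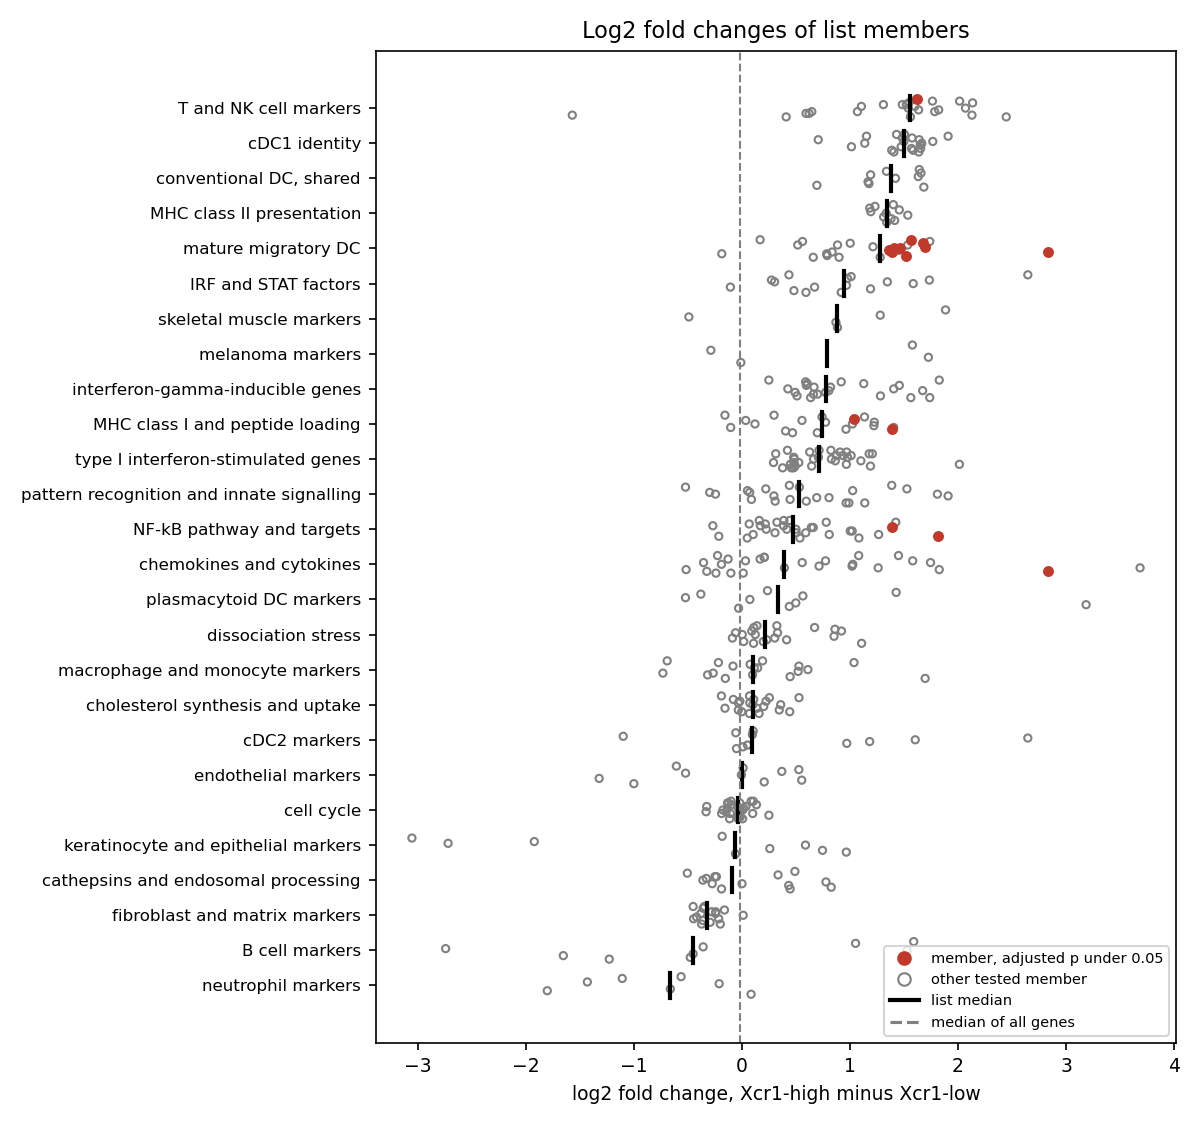
Log2 fold change (high minus low) of each tested member of 26 gene lists, with filled points for members at an edgeR adjusted p under 0.05, a black bar at each list's median and a dashed line at the median of all genes, -0.012. The cDC1 identity, shared conventional DC, mature migratory DC, MHC class II and T and NK cell lists have the highest medians, between 1.28 and 1.56, while the cDC2 list, at 0.10, and the plasmacytoid DC list, at 0.34, lie lower.

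Medians of the interferon, IRF and STAT and pattern recognition lists ran from 0.53 to 0.94 over both sets together. They lay below those of the cDC1 identity, shared conventional DC and mature DC lists, as they did in the Ikbkb set alone. In the Irf1 set alone this order did not hold for 2 lists. There the interferon-gamma median was 1.1386 (0.5424 in the Ikbkb set), above cDC1 identity (1.0253) and shared (0.8617) but below mature (1.1529). Pattern recognition, at 0.9062, lay above the shared list only. Over both sets, 32 of 32 type I interferon-stimulated genes were positive, with a median of 0.71 and 0 called. That median was 0.41 with 30 of 32 positive without Ikbkb control replicate 3. Irf7, a driver of type I interferon, was 373 ± 279.9 against 183 ± 62.4 CPM (log2 fold change 1.01 with SE 0.36, adjusted p = 0.208 by edgeR), and Bst2 287 ± 139.7 against 207 ± 64.5 CPM (log2 fold change 0.48 with SE 0.27, adjusted p = 0.482 by edgeR). Interferon-gamma-inducible genes were positive in 23 of 23 with a median of 0.77 and 0 called, and among them Ifi47 measured 332 ± 135 against 296 ± 165 CPM (log2 fold change 0.25 with SE 0.25, adjusted p = 0.733 by edgeR). The list of IRF and STAT factors had a median of 0.94 with 15 of 16 positive (0.47 without the 2 libraries that stood apart), and Stat3 was 359 ± 135 against 248 ± 96.4 CPM (log2 fold change 0.59 with SE 0.24, adjusted p = 0.272 by edgeR). Pattern recognition genes had a median of 0.53 with 20 of 23 positive and 0 called (0.30 and 18 of 23 without the same 2 libraries). Of these, Unc93b1, the chaperone of endosomal Toll-like receptors, was 338 ± 196 against 170.1 ± 53.2 CPM (log2 fold change 0.99 with SE 0.26, adjusted p = 0.085 by edgeR), and Tmem173, which encodes STING, 184 ± 71.3 against 146 ± 22.9 CPM (log2 fold change 0.30 with SE 0.17, adjusted p = 0.499 by edgeR).

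In 4 lists of general processes 0 members were called, and their medians ran from -0.09 to 0.21. Cell cycle genes had a median of -0.03 with 9 of 30 positive (-0.0046 and 14 of 30 without both libraries that stood apart, and 0.04 with 17 of 30 positive without Irf1 control replicate 4), and Cdk1 was 322 ± 95.6 against 349 ± 87.8 CPM (log2 fold change -0.11 with SE 0.13, adjusted p = 0.781 by edgeR) and Rrm1 339 ± 99.6 against 312 ± 70.7 CPM (log2 fold change 0.10 with SE 0.18, adjusted p = 0.865 by edgeR). Cathepsins and endosomal processing genes had a median of -0.09 with 7 of 14 positive. Cholesterol genes had a median of 0.10 with 14 of 21 positive (-0.01 with 9 of 21 positive without Irf1 deleted replicate 1 and 0.22 with 21 of 21 positive without Irf1 deleted replicate 4), where Srebf2, the transcription factor of the pathway, was 346 ± 125 against 254 ± 66.2 CPM (log2 fold change 0.44 with SE 0.22, adjusted p = 0.398 by edgeR). Genes induced by tissue dissociation, which report on handling, had a median of 0.21 with 18 of 20 positive, against 48.6% of all genes, and 0.10 with 15 of 20 positive without Ikbkb control replicate 3 (0.09 without both libraries that stood apart). In this list Fos was 1423 ± 641 against 1227 ± 597 CPM (log2 fold change 0.23 with SE 0.17, adjusted p = 0.608 by edgeR).

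T and NK cells are cells other than cDC1s, and their markers also had higher means in the high libraries. Of 25 members 24 were positive, with a median of 1.56, and 1 was called. That was Klrk1 (ENSMUSG00000030149, chromosome 6, 129610323 to 129623864, minus strand), which encodes the activating receptor NKG2D, at 168, 253, 63.6 and 83.5 CPM in the high and 42.4, 66.2, 42.1 and 48.9 CPM in the low libraries of the Ikbkb set. In the Irf1 set it was at 62.6, 49.8, 18.5 and 78.6 CPM and 15.2, 27.1, 12.2 and 8.56 CPM (log2 fold change 1.62 with SE 0.33, adjusted p = 0.0483 by edgeR). The T cell receptor genes Cd3e (32.6 against 12.4 CPM) and Trac (47.7 against 17.2 CPM) and the CD8 gene Cd8a (28.7 against 9.09 CPM) had higher means in the high libraries and were not called (edgeR adjusted p = 0.138, 0.0946 and 0.202). The list summed to 94.1 to 2736 CPM in the high and 123 to 675 CPM in the low libraries, and 7 of its 25 members were at 0 in at least 1 library. Ikbkb control replicate 3 alone held 2736 CPM, the highest sum, and without it the median was 1.23. The part of these cells in the results on mature dendritic cell, interferon and MHC genes was not tested.

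Markers of the remaining cell types gave 0 calls. The macrophage and monocyte list, with a median of 0.11 and 11 of 18 positive, summed to 4108 to 18163 CPM in the high and 6147 to 14209.5 CPM in the low libraries. Its median was -0.58 in the Ikbkb set and 0.93 in the Irf1 set. Spp1 was 4306 ± 1130.5 against 5363 ± 1487 CPM (log2 fold change -0.32 with SE 0.18, adjusted p = 0.473 by edgeR) and Apoe 1705 ± 1528 against 1719.8 ± 774 CPM (log2 fold change -0.08 with SE 0.51, adjusted p = 0.973 by edgeR). Fibroblast and matrix genes had negative fold changes in 15 of 16 members, with a median of -0.32 and a sum of 17898 ± 9996 against 21287 ± 12244 CPM, and Col3a1 was 4289 ± 3025 against 5095 ± 4037 CPM (log2 fold change -0.21 with SE 0.25, adjusted p = 0.775 by edgeR) and Sparc 3522 ± 937 against 4219 ± 1111 CPM (log2 fold change -0.24 with SE 0.14, adjusted p = 0.507 by edgeR). Medians were 0.10 for cDC2 genes, 0.34 for plasmacytoid DC genes, 0.0040 for endothelial genes, -0.45 for B cell genes and -0.66 for neutrophil genes. They were 0.78 over 4 tested melanoma genes, 0.89 over 5 muscle genes and -0.06 over 9 keratinocyte genes. Of the measured members of these lists, tested or not, 9 of 11, 7 of 10 and 8 of 10 were at 0 in at least 1 library. Several of these medians turned or moved by over 1.5 times when single libraries were left out. The range was -0.13 (without Irf1 control replicate 4) to 0.25 (without Ikbkb deleted replicate 1) for cDC2 genes, and its median was also negative without Irf1 deleted replicate 4. It was 0.10 (without Ikbkb control replicate 3) to 0.46 for plasmacytoid DC genes, -0.21 to 0.17 for endothelial genes and -1.07 (without Ikbkb control replicate 3) to 0.52 (without Irf1 deleted replicate 4) for B cell genes. It was 0.0076 (without Ikbkb control replicate 1) to 0.97 for melanoma genes, 0.24 (without Ikbkb control replicate 3) to 1.11 for muscle genes and -0.62 to 0.92 (without Irf1 deleted replicate 3) for keratinocyte genes. The macrophage median was -0.22 without Irf1 control replicate 4 and 0.31 without Ikbkb deleted replicate 1, and the neutrophil median -0.42 without Ikbkb deleted replicate 3. Without both libraries that stood apart, the medians were 0.29 for cDC2, 0.07 for plasmacytoid DC, 0.39 for macrophage, -0.21 for fibroblast, -0.32 for endothelial, -0.88 for B cell, -0.02 for muscle and -0.40 for keratinocyte genes. In the melanoma list 2 of 4 tested genes were positive, and its median was -0.29 over 2 tested genes in the Ikbkb set alone. These medians thus give no direction that holds over the libraries for the cDC2, macrophage, endothelial, B cell, melanoma, muscle and keratinocyte lists.

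**Figure D4:**
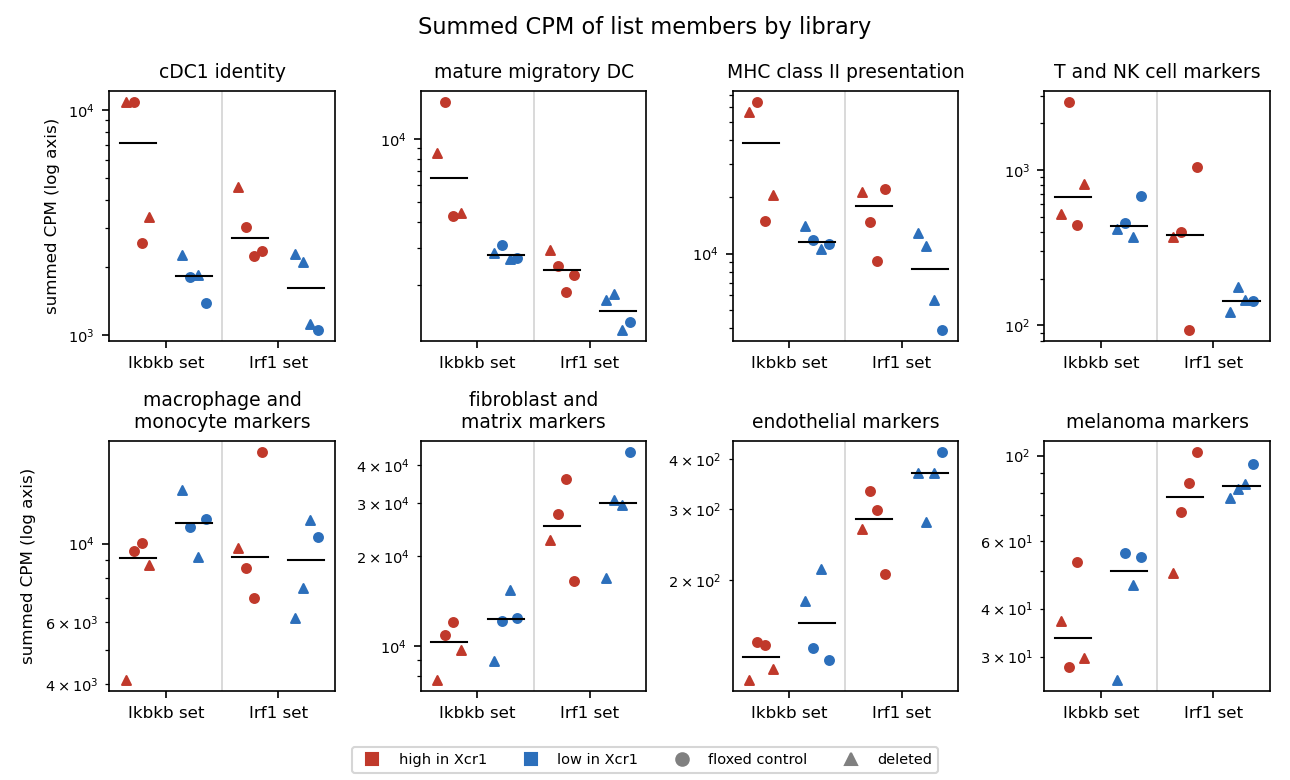
Summed TMM-scaled CPM (log axis) of 8 marker lists in each library by set and level, with circles for floxed controls, triangles for deleted libraries and a black line at the median of 4 libraries. The cDC1 identity sum is highest in 2 Ikbkb libraries, at 10856 and 10878 CPM, the T and NK cell sum is highest in 1 of them, at 2736 CPM, and the fibroblast sum differs more between the sets than between the levels.

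Whether the contrast differed between both sets was tested by the interaction of set and level. EdgeR called 0 genes, with 978 (6.10%) at an unadjusted p under 0.05 and a smallest adjusted p of 0.809, and DESeq2 called 29. The 3 genes with the smallest p were Ppp1r14c, at 0 to 1.83 CPM in all libraries, Abca9 and Fam20c. Abca9, a lipid transporter gene, measured 2.36, 3.73, 3.50 and 5.80 CPM in the high and 21.5, 14.5, 20.1 and 34.2 CPM in the low libraries of the Ikbkb set, while the Irf1 set gave 11.1, 12.4, 18.2 and 24.4 and 3.88, 6.52, 11.4 and 16 CPM. Fam20c, a kinase gene of the secretory pathway, measured 3.31, 3.52, 1.37 and 2.52 and 17, 16.4, 16.7 and 6.35 CPM in the Ikbkb set, while the Irf1 set gave 10.8, 24.9, 22.8 and 20.6 and 12.8, 24.9, 14.6 and 17.9 CPM. Both genes were lower in the high libraries of the Ikbkb set without overlap, and overlapped in the Irf1 set, and neither interaction passed (edgeR adjusted p = 0.809). The mature dendritic cell list had a median of 1.38 in the Ikbkb set and 1.15 in the Irf1 set, with 24 of 25 positive in each.

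**Figure D5:**
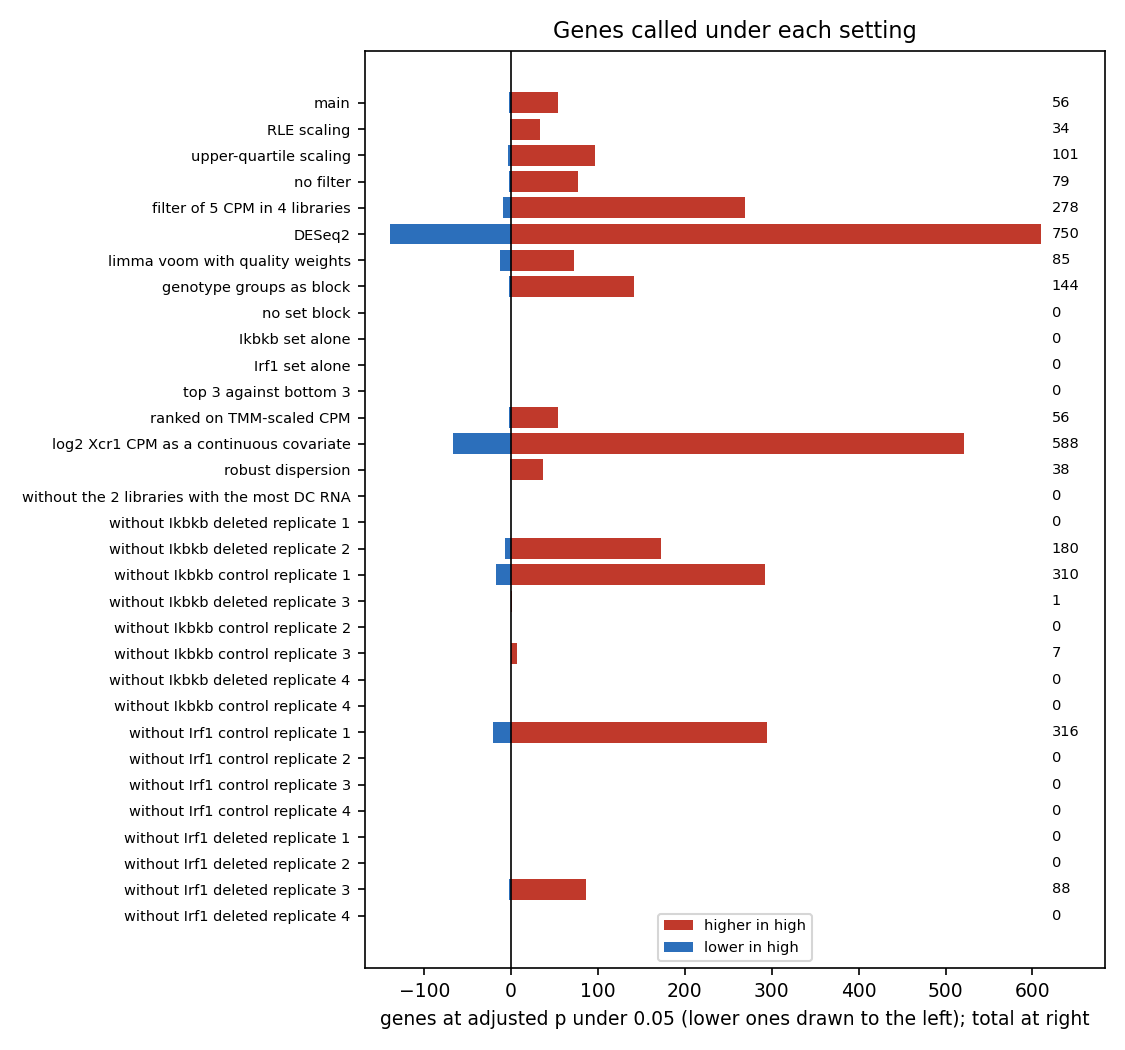
Number of genes at an adjusted p under 0.05 under each setting, with genes higher in the high libraries drawn to the right, genes lower drawn to the left and the total printed at the right. The count is 56 in the fit reported here, runs from 0 to 316 when single libraries are left out, and is 0 in either set alone.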

How the data were processed

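Bulk RNA was measured in 16 libraries by SMART-Seq v4 with 12 cycles of PCR from 1000 pg of RNA and by Nextera XT with 12 more cycles, per the labels' protocols. The authors deposited 1 table of raw counts per Ensembl gene. The submitters' processing notes list HTSeq 0.6.1p1, STAR 2.5.3a, cutadapt 1.10, bcl2fastq 2.17.1.14 and build mm10, without their roles. The strand setting and annotation release are not given in the sources used here, so overlapping and antisense genes cannot be told apart, and as the reads carry no molecular identifiers, PCR copies count as reads.

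Of 32697 genes, 32684 had a symbol in GENCODE M21, from which coordinates were also taken, and 13 had none. In R 4.3.3 with edgeR 4.0.16, filterByExpr on the genotype groups (minimum count 10, minimum total 15) kept 16040 genes, and Xcr1 was then left out. Libraries were scaled by TMM, and the quasi-likelihood test compared high with low with the set as a block, with Benjamini-Hochberg adjustment over 16039 genes and a threshold of 0.05. The SE given with a log2 fold change was derived from that test, as the absolute fold change over the square root of its F statistic. Log2 CPM used a prior count of 2. Library measures were tested by exact permutation over 4900 labellings within sets. The scripts were first run on simulated counts with known changes.

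The members, the 26 lists and the rules were chosen with earlier results of these data known. The rule named both targeted genes, the 12 called genes per direction with the largest change given a mean log2 CPM of 3 or more and no overlap within a set (leaving out predicted genes), for each list its called members (5 at most) or else the 2 highest expressed ones, and 3 genes for the interaction. Ccr7, Pdcd1lg2 and Tpsb2, and list members named beside these, were chosen after their values were seen. Lists were described by counts and medians, without a set test. Alternatives were other scalings (RLE, upper quartile), other filters, DESeq2 1.42.0, limma 3.58.1 voom, a robust dispersion, other blocks, each set alone, other rankings and leaving out libraries.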

Additional observations from a re-analysis of the deposited data

Results flagged for a closer look

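In groups of 4 libraries of 1 set and level, 14 values of 192 groups examined (7.29%) lay far from the other 3 by Dixon's test, where chance flags about 1 in 20. Ikbkb control replicate 3, a high library, gave 5 of them: the summed T and NK cell markers at 2736 CPM (next 812.8), B cell markers at 989 CPM (next 153.1) and skeletal muscle markers at 698 CPM (next 152.8), and the genes Serpinb6b at 255 CPM (next 117.9) and Irf1 at 892 CPM (next 391.8).

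Among the other summed lists, cholesterol genes stood high in Ikbkb deleted replicate 1 at 2597 CPM (next 1931) and neutrophil markers in Irf1 control replicate 4 at 144.9 CPM (next 34.7). Keratinocyte markers stood high in Irf1 deleted replicate 3 at 856 CPM (next 26.8). Chemokines stood low in Ikbkb deleted replicate 4 at 1574 CPM (next 1971), and cDC2 markers in Irf1 deleted replicate 4 at 95.8 CPM (next 229.5).

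Of single genes, Htr7 stood high in Ikbkb deleted replicate 3 at 26.1 CPM (next 13.4) and Arsa in Ikbkb deleted replicate 4 at 116.2 CPM (next 104.1). Cd40 stood low in Irf1 control replicate 1 at 42.2 CPM (next 77.4) and Samsn1 in Irf1 deleted replicate 2 at 11.2 CPM (next 19.2).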

How the results depend on the processing

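The number of genes called, 56, was 34 with RLE scaling, 101 with upper-quartile scaling, 79 without a filter, 278 with a filter of 5 CPM in 4 libraries, 750 with DESeq2, 85 with limma voom, 144 with genotype groups as block, 588 with log2 Xcr1 as a continuous covariate and 38 with robust dispersion. It was 0 without the set block (1481 genes at an unadjusted p under 0.05), in the Ikbkb set alone (1494), in the Irf1 set alone (1198), with the top 3 against the bottom 3 (2124) and, chosen after seeing the data, without the 2 libraries richest in cDC1 RNA (1309). Leaving out single libraries gave 0 to 316, with 1724 to 2520 genes at an unadjusted p under 0.05. The cause was not tested. Of the calls, 96.4% were higher in the high libraries, against 81.3% with DESeq2, 84.7% with limma voom and 88.6% with the continuous covariate. The 17 called genes named by the rule kept their direction in all 527 refits in which they were tested and their call in 224. With DESeq2, 18 members of the mature dendritic cell list and 18 of the cDC1 identity list were called, and 0 of either list in either set alone. The interaction gave 29 calls with DESeq2 and 0 to 1 when single libraries were left out. The high minus low difference in total count was 2915000 in the Ikbkb set, -3688000 in the Irf1 set and -1095000 to 470300 when single libraries were left out. That in genes with a count was -671 in the Ikbkb set, 715.2 in the Irf1 set and -181.6 to 451.6 when single libraries were left out, and that in mitochondrial share was 0.356 percentage points in the Irf1 set and -1.07 in the Ikbkb set.

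Among the 45 other named genes, whose differences did not pass, the log2 fold change changed sign in 96 of 1387 refits. In the Irf1 set alone it was -0.54 for Acta1, -0.05 for Rrm1, -4.64 for Ppp1r14c, -0.06 for Hsp90ab1, -0.51 for Pecam1, 0.20 for Mitf, 1.07 for Apoe, 0.85 for Abca9 and 0.21 for Fam20c. In the Ikbkb set alone it was -0.09 for Ifi47, -0.56 for Sirpa, -1.04 for Csf3r, -0.04 for Mgl2, 0.08 for Msmo1 and 0.57 for Retnlg. With limma voom it was -0.27 for Igkc, -0.01 for Sirpa, -2.44 for Ppp1r14c, -0.30 for Pecam1, -0.46 for Mgl2 and 0.23 for Msmo1. With genotype groups as block it was -0.05 for Sirpa, -0.13 for Mgl2 and 0.07 for Msmo1. Without the set block it was -0.82 for Ppp1r14c, -0.26 for Pecam1, 0.04 for Mitf and 0.03 for Msmo1. With the top 3 against the bottom 3 it was -0.11 for Ifi47, -0.11 for Sirpa, -0.21 for Csf3r, -0.09 for Pecam1, -0.63 for Mgl2 and 0.25 for Msmo1. With the continuous covariate it was -0.01 for Ifi47, -0.01 for Hsp90ab1, -0.06 for Pecam1, -0.14 for Mgl2 and 0.02 for Msmo1. Without the 2 richest libraries it was -0.11 for Acta1, -0.55 for Ppp1r14c, 0.15 for Mitf, 0.11 for Msmo1 and 0.36 for Apoe. With upper-quartile scaling it was 0 for Hsp90ab1 and 0 for Pecam1, and with the 5 CPM filter 0.01 for Mitf. When single libraries were left out it ran from -0.46 to 0.17 for Apoe, -0.12 to 0.33 for Csf3r, -0.01 to 0.07 for Hsp90ab1, -6.35 to 2.22 for Krt14, -6.84 to 0.08 for Krt5, -0.37 to 0.13 for Mgl2 and -0.20 to 0.25 for Mitf. It ran from -0.12 to 0.17 for Msmo1, -0.15 to 0.18 for Pecam1, -1.53 to 1.92 for Ppp1r14c, -0.63 to 0.03 for Retnlg and -0.13 to 0.25 for Sirpa. The B cell list's median was 1.06 with the 5 CPM filter, and the melanoma list's was -0.13 with that filter and -0.29 in the Ikbkb set alone.

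No paired analysis was possible because the replicate numbers follow only the order of the record and the high and low libraries share no label that pairs them.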

Other observations

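Mast cell genes, looked up after the call of Tpsb2 was seen, had lower means in the high libraries in 9 of 10 tested members, with a median log2 fold change of -1.12 and 1 call, Tpsb2 itself. Tpsb2 measured 3.10, 10.1, 8.46 and 8.72 CPM in the high and 22.5, 43.4, 26.6 and 28.3 CPM in the low libraries of the Ikbkb set, which did not overlap, and 32.8, 28, 66.3 and 18 CPM and 80.7, 77.1, 137 and 63.5 CPM in the Irf1 set, which overlapped. Cma1, a chymase gene, was 12.7 ± 9.24 against 36.8 ± 21.8 CPM (log2 fold change -1.58 with SE 0.34, adjusted p = 0.0537 by edgeR), and Cpa3, a carboxypeptidase of mast cell granules, 16 ± 19.9 against 45.1 ± 22 CPM (-1.88, SE 0.51, edgeR adjusted p = 0.0968). Kit, the receptor of stem cell factor, had the opposite sign, at 56.6 ± 40.4 against 26.5 ± 10.3 CPM (1.11, SE 0.40, edgeR adjusted p = 0.215). The levels of these genes were also higher in the Irf1 set than in the Ikbkb set in most libraries, as with Cpa3 at 56.8, 66.5, 79.5 and 51.8 CPM in the low Irf1 libraries and 22.6, 33.9, 32.1 and 17.4 CPM in the low Ikbkb ones.

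Further called genes are named singly here, chosen after their values were seen, and stand for no group. Lcp1, which encodes the actin bundler L-plastin, was 851 ± 433 against 321 ± 68.9 CPM (log2 fold change 1.39 with SE 0.25, adjusted p = 0.0346 by edgeR), Myo1g, a myosin of blood cells, 296 ± 256 against 80.5 ± 34.9 CPM (log2 fold change 1.78 with SE 0.32, adjusted p = 0.0346 by edgeR), and Nckap1l, a subunit of the WAVE complex of blood cells, 200.2 ± 92.3 against 88.2 ± 15.9 CPM (log2 fold change 1.15 with SE 0.21, adjusted p = 0.0346 by edgeR). Havcr2, which encodes the receptor TIM-3, was at 63.7 ± 41 against 16.5 ± 8.16 CPM (log2 fold change 1.94 with SE 0.39, adjusted p = 0.0485 by edgeR), and Il10ra, the IL-10 receptor, at 109.8 ± 69.4 against 36.3 ± 11.3 CPM (log2 fold change 1.59 with SE 0.33, adjusted p = 0.05 by edgeR). Sema4a and Sema4d, a pair of semaphorin genes, were 167 ± 98.7 against 58 ± 27.8 CPM (log2 fold change 1.53 with SE 0.30, adjusted p = 0.0449 by edgeR) and 66.1 ± 35.6 against 24.2 ± 5.18 CPM (log2 fold change 1.46 with SE 0.29, adjusted p = 0.0479 by edgeR). H2-Q6, an MHC class I gene whose reads may be split with close paralogs, was 172 ± 150.5 against 52.8 ± 14.5 CPM (log2 fold change 1.67 with SE 0.35, adjusted p = 0.05 by edgeR). Misp and the predicted gene Gm43890 were called at 0.988 and 1.44 CPM in the high libraries and 0.00505 and 0.00778 CPM in the low ones, so the size of their fold changes rests on values near the floor.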
